A study of Mus musculus with 4 samples.

Results

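The integrin subunit genes *Itgav*, *Itga5*, *Itga6*, *Itgb1*, *Itgb3*, *Itgb4*, *Itgb5*, *Itgb6*, *Itgb7* and *Itgb8* were examined in high and low MMP cells. These 10 genes were chosen by name, with no threshold on their values, out of 20197 genes in the table. The choice was made with earlier results of these data known. The tests of *Itgb6* below, alone and against other beta subunits, are therefore not independent of it. 4T1 cells, a mouse mammary tumor line of WT genotype kept in culture, were stained with 20 nM MitoSpy Red, a dye that gathers in mitochondria with a high mitochondrial membrane potential (MMP). The brightest 5% were sorted as high MMP cells and the dimmest 5% as low MMP cells, with 2 samples in each group, so every sample was stained and sorted, and none was unsorted. Each library came from 100000 cells and 200 ng of RNA, and was made with a stranded mRNA kit. The study's supplement describes the replicates of this comparison as independent experiments, while the labels do not say which samples were sorted together. All samples come from a single cell line, so p-values measure the spread between these samples only.

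Integrins are receptors in the plasma membrane, each made of an alpha and a beta subunit, that hold cells to the extracellular matrix and pass signals across the membrane. The alpha-v subunit is unusual in pairing with several beta subunits, and the resulting receptors bind matrix proteins that carry an arginine-glycine-aspartate motif. Beta-6 pairs with alpha-v alone, is found mostly in epithelia, is raised in wounds and carcinomas, and is best known for releasing active TGF-beta from its latent form. Beta-1 has many alpha partners, and beta-4 pairs with alpha-6 alone, in the hemidesmosomes that fix epithelial cells to laminin.

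The libraries held 22591970 to 26395015 reads. Values are normalized reads, on the deposited scale on which each library sums to 20000000, and a difference is the mean log2(value + 1) of high MMP cells minus that of low MMP cells. Replicates differed by more than counting noise, with a chi-square per gene of 43.2 for the pair of high MMP libraries and 9.08 for the low MMP pair. Of 8 markers of mammary epithelium, 7 were in the table with summed values of 53344 to 70985, *Krt8* among them with 15710 to 25806 reads, while *Krt5* was not in the table, and those that differed most were *Cdh1* (-0.34), *Krt14* (0.32) and *Cldn4* (0.25). Of 9 leukocyte markers, 4 were in the table, with summed values of 450 and 417 in high and 538 and 678 in low MMP cells. Nearly all of that sum was *Itgb2*, taken up below, while *Ptprc*, the pan-leukocyte gene, had 0 to 2 reads. Summed values were 44.5 to 54.9 for 3 of 4 platelet markers and 1.74 to 6.20 for 2 of 4 endothelial markers, and for 3 of 5 fibroblast markers, nearly all of it *Pdgfra*, 331 and 367 in high against 538 and 597 in low MMP cells. Genes of the cell cycle moved with the groups. Their lists were chosen with earlier results of these data known, so the counts are a description and not a test. Of 12 G2/M genes, 11 had both high MMP values above both low MMP values, against 13.5% of all genes. Their list had summed values of 96924 and 105576 against 60429 and 62752, and *Mki67* (-0.11) was the gene that overlapped. All 12 S-phase genes lay the other way, against 24.5% of all genes, with sums of 44101 and 33932 in high and 55095 and 56442 in low MMP cells. The G2/M genes that differed most were *Ube2c* (1.30), *Nusap1* (1.22) and *Prc1* (1.19), and the S-phase genes *Ung* (-1.90), *Cdc6* (-1.43) and *Ccne2* (-0.91). Their part in the integrin values was not tested.

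*Itgb6* was the only one of the 10 genes whose high and low MMP values did not overlap. It had 179 and 166 normalized reads in high MMP replicates 1 and 2, from 236 and 198 reads, and 66.3 and 85.9 in low MMP replicates 1 and 2, from 76 and 97 reads. Both high MMP values stood well above both low MMP values, and the gap between the groups was wider than the gap within either. Over all genes, both high MMP values lay above both low MMP values in 13.5%, and both low MMP values above both high MMP values in 24.5%. In limma the difference was 1.18 (SE 0.19, 95% interval 0.68 to 1.68), a 2.26-fold higher level, with an unadjusted p of 0.00259 and an adjusted p of 0.472 over all genes. Thus none of the 10 genes passed limma's adjusted threshold of 0.05, where 0% of all genes passed. *Itgb6* was the only member with an unadjusted p under 0.05, against 9.96% of all genes, or 3.95% counting only those with the higher level in high MMP cells. At least 2-fold higher means with no overlap, as in *Itgb6*, occurred in 0.357% of the 12902 genes whose mean reached 10. That criterion follows the pattern of *Itgb6* itself, so the share is a description and not a test. On the recovered whole reads, DESeq2 called *Itgb6* (log2 difference 1.22, adjusted p = 0.00537), and it was the only member among the 0.985% of genes that DESeq2 called, whereas edgeR's quasi-likelihood test without a block did not (adjusted p = 0.567). In bulk RNA, fewer cells that carry a transcript and less of it per cell cannot be told apart.

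**Figure D1:**
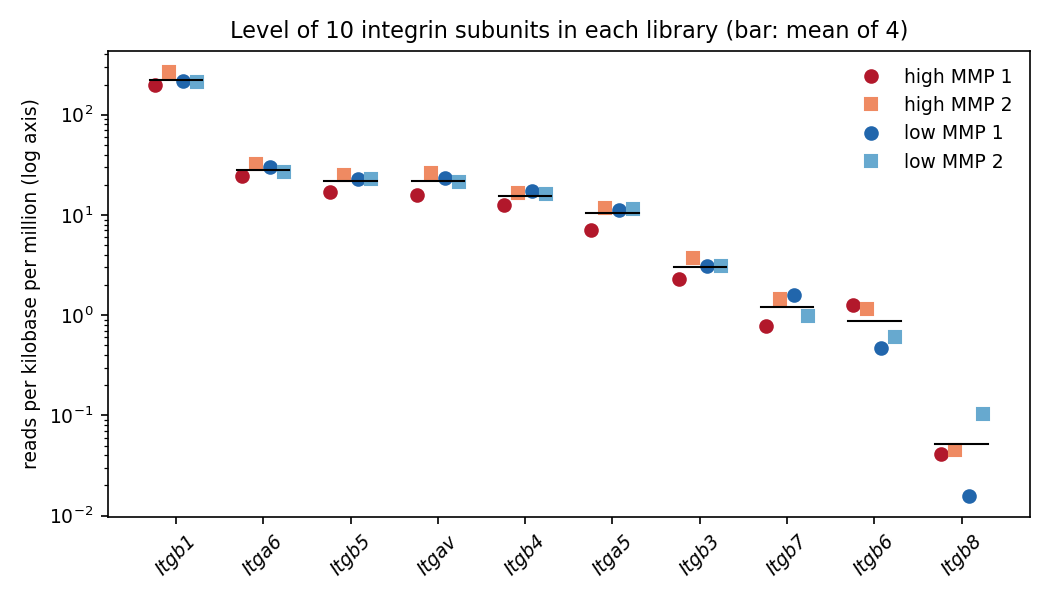
Reads per kilobase of exon, scaled to the depth of the library, of the 10 integrin genes on a log axis. Each gene has 1 point per library (2 high MMP, 2 low MMP) and a bar at the mean of the 4 libraries. *Itgb6* is the one gene with both high MMP points (1.26 and 1.17) above both low MMP points (0.466 and 0.604). The points of *Itgb8*, from 4 to 26 reads, are the most scattered.

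*Itgb6* lies on the minus strand of GRCm38 chromosome 2 (60598292 to 60722643), and *Itgav*, its only alpha partner, on the plus strand of the same chromosome (83724397 to 83806916). Their upstream sequences are shown because *Itgb6* was the member that stood apart and *Itgav* its partner that did not. RefSeq promoters on GRCm38.p6 matched 7 of the 10 members, and each was read from base 250 to base 41 before the start. RefSeq gives *Itgb6* a pair of starts, and the window of the upstream one is shown. The *Itgb6* window is chr2:60722644-60722853 (minus strand) and that of *Itgav* chr2:83724147-83724356 (plus strand), and capitals mark a match to a searched motif.
*Itgb6*: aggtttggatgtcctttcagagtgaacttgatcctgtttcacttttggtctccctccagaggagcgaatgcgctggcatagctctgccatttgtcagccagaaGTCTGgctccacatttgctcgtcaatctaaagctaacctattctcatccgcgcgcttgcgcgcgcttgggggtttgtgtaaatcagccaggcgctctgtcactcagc
*Itgav*: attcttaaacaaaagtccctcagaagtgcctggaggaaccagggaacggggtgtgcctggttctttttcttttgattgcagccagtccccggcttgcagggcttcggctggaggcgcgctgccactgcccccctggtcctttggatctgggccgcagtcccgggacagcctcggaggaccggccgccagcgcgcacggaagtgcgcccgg
The motifs, searched on both strands, were the AP-1 letters TGANTCA, the SMAD letters CAGAC, the TATA box TATAAA, the CCAAT box, and the GC box with the letters GGGCGG. No match overlapped another. This *Itgb6* window held 1 match, to the SMAD letters on the opposite strand, which occur in 37.2% of 32851 promoter windows of this length. *Itgav* held none. The share of all windows was 5.84% for AP-1, 9.56% for the TATA box, 29.9% for CCAAT and 26.7% for the GC box. The *Itgb6* window had 10 CpG and 52.4% GC, and the *Itgav* window 15 CpG and 64.3% GC, against medians of 4 CpG and 51.9% over all windows. The window of the downstream *Itgb6* start (chr2:60673734-60673943) held 0 matches, 3 CpG and 38.6% GC. No reading of either promoter, such as a peak or methylation, was analysed here.

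The second question was whether *Itgb6* stood apart from the other beta partners of *Itgav*. *Itgb1*, the common beta subunit of receptors for collagen, laminin and fibronectin, had 16105 and 21783 normalized reads in high MMP cells and 17694 and 17101 in low MMP cells. High MMP replicate 2 was the highest library and high MMP replicate 1 the lowest, so both low MMP values fell between them. The difference was 0.11 (SE 0.18, 95% interval -0.40 to 0.61, limma adjusted p = 0.932). *Itgb5*, whose product joins alpha-v in a vitronectin receptor, had 1211 and 1782 in high and 1627 and 1620.04 in low MMP cells. Here too the low MMP values were nearly equal and lay between the high MMP values. Its difference was -0.14 (SE 0.20, interval -0.70 to 0.41, limma adjusted p = 0.906).

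*Itgb3*, the partner of alpha-v best known from endothelium, bone-resorbing cells and invasive tumors, had 271 and 437 in high and 362 and 369 in low MMP cells. The order of the libraries was again high MMP 1 lowest and high MMP 2 highest. The difference was -0.09 (SE 0.25, interval -0.78 to 0.60, limma adjusted p = 0.970). *Itgb8*, which like beta-6 binds latent TGF-beta, rested on 12, 12, 4 and 26 reads, or 9.09 and 10.0 normalized reads in high and 3.49 and 23.0 in low MMP cells. The low MMP libraries bracketed the high MMP ones, and the interval of the difference (0.02, SE 0.88, -2.38 to 2.43, limma adjusted p = 0.994) allows a change of either sign that is larger than that of *Itgb6*. The low MMP replicates of *Itgb8* differed by -2.42 (replicate 1 minus 2), with a counting SE of 0.775. For these 4 partners a p that misses the threshold does not show that the groups were alike.

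**Figure D2:**
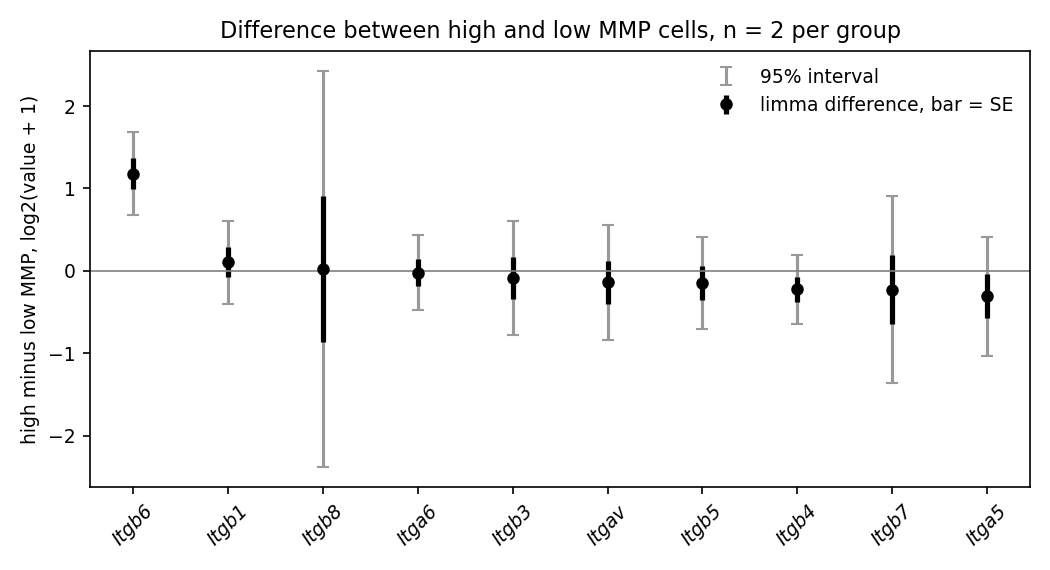
Difference between high and low MMP cells of each integrin gene in log2(value + 1), with the limma estimate as a point, its SE as a thick bar and its 95% interval as a thin bar (n = 2 per group). Only the interval of *Itgb6*, 0.68 to 1.68, lies clear of 0, and that of *Itgb8* is the widest.

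Set against each partner within the same library, *Itgb6* took a larger place in high MMP cells. Its log2 ratio to *Itgb3* was -0.59 and -1.39 in high and -2.43 and -2.09 in low MMP cells, and the groups differed by 1.27 (SE 0.43). Per kilobase of exon, *Itgb6* stood at 54.9% and 31.5% of *Itgb3* in high MMP cells and at 15.2% and 19.3% in low MMP cells. Both high MMP libraries thus lay above both low MMP libraries, and high MMP 1 was well above high MMP 2, with *Itgb3* at its lowest there.

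The ratio of *Itgb6* to *Itgb5* was -2.75 and -3.42 in high and -4.60 and -4.22 in low MMP cells, 1.32 apart (SE 0.38). To *Itgb1* it was -6.48 and -7.03 against -8.04 and -7.62, a difference of 1.07 (SE 0.34). The ratios did not overlap between groups for either partner. To *Itgb8* the ratio was 4.16 and 3.92 in high and 3.91 and 1.85 in low MMP cells, 1.16 apart (SE 1.03), where high MMP 2 and low MMP 1 all but touched. That difference was 0.13 without low MMP 2 and 2.18 without low MMP 1, so it rests on which low MMP library is kept. The exact two-sided permutation test gave p = 0.33 for each of the 4 ratios, the smallest p that 2 against 2 samples allow, and 0.33 after Benjamini-Hochberg adjustment over the 4. Each ratio holds the same *Itgb6* values, so the 4 are not separate measurements.

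**Figure D3:**
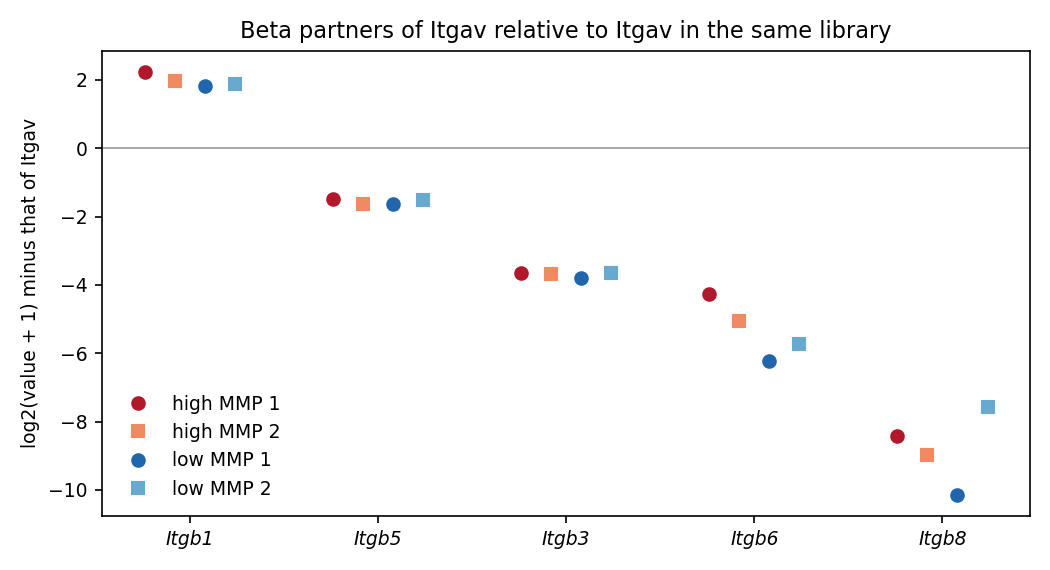
Log2(value + 1) of each beta partner of *Itgav* (*Itgb1*, *Itgb5*, *Itgb3*, *Itgb6*, *Itgb8*) minus that of *Itgav* within each library, with 1 point per library. The high MMP points lie above the low MMP points for *Itgb6* and *Itgb1*, and the groups overlap for *Itgb3*, *Itgb5* and *Itgb8*.

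Of the reads of all 5 beta partners of *Itgav*, *Itgb6* took 1.01% (95% Wilson interval 0.886 to 1.14) in high MMP 1, 0.685% (0.597 to 0.787) in high MMP 2, 0.335% (0.268 to 0.420) in low MMP 1 and 0.447% (0.367 to 0.545) in low MMP 2. The intervals, which cover counting error only, did not overlap between a high and a low MMP library. The group shares were 0.846% ± 0.227 and 0.391% ± 0.0791 (SD, n = 2 each; exact two-sided permutation p = 0.33, the smallest possible). The difference of 0.454 percentage points was 0.294 without high MMP 1. *Itgb1* makes up nearly all of this pool, and most beta-1 pairs with other alpha subunits. Without it, *Itgb6* took 10.7% in high MMP 1 (236 of 2203 reads, interval 9.49 to 12.1) and 6.92% in high MMP 2 (198 of 2861, 6.05 to 7.91). In low MMP cells it took 3.22% in replicate 1 (76 of 2361, 2.58 to 4.01) and 4.09% in replicate 2 (97 of 2370, 3.37 to 4.97). Even in high MMP cells it was a minor beta transcript, and the larger share in high MMP 1 came with both more *Itgb6* reads and fewer *Itgb3* and *Itgb5* reads than in high MMP 2.

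**Figure D4:**
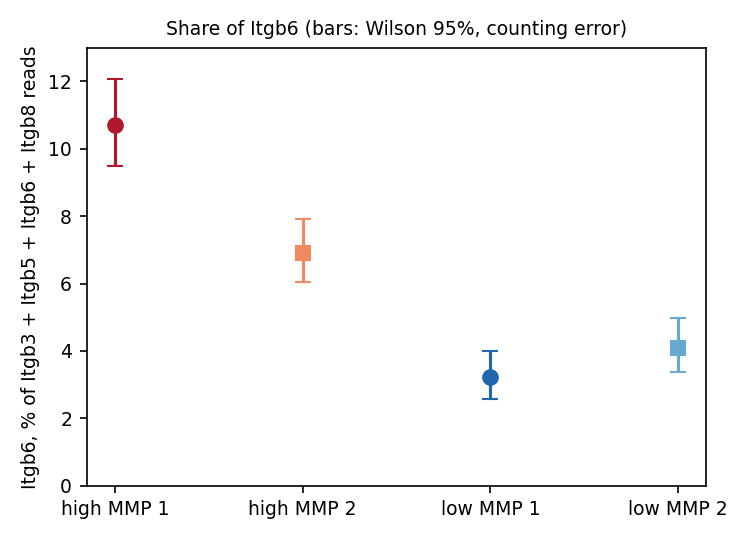
Share of *Itgb6* among the reads of *Itgb3*, *Itgb5*, *Itgb6* and *Itgb8* in each library, in percent, with 95% Wilson intervals for counting error as bars. Without *Itgb1*, the share lies at 10.7% and 6.92% in the high MMP libraries and at 3.22% and 4.09% in the low MMP libraries.

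*Itgav* itself, the alpha subunit of the beta-6 receptor, had 3426 and 5583 normalized reads in high and 5042 and 4610 in low MMP cells. High MMP 1 was the lowest library and high MMP 2 the highest. The difference was -0.14 (SE 0.26, 95% interval -0.84 to 0.56, limma adjusted p = 0.938). The log2 ratio of *Itgb6* to *Itgav* was -4.25 and -5.07 in high and -6.23 and -5.73 in low MMP cells, 1.32 higher in high MMP cells (SE 0.48) with no overlap. Relative to *Itgav*, *Itgb3* differed by 0.05, *Itgb5* by -0.00 and *Itgb8* by 0.16, each with overlapping groups. *Itgb1* differed by 0.25, without overlap.

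*Itga5*, the alpha subunit of the main fibronectin receptor, had 695.6 and 1162 in high and 1098 and 1127 in low MMP cells. High MMP 1 stood far below the other 3 libraries, which were within a narrow range. The difference was -0.31 (SE 0.27, interval -1.03 to 0.42, limma adjusted p = 0.809), the most negative of the 10. *Itga6*, the laminin-binding subunit that pairs with beta-1 and beta-4, had 4400 and 5809 in high and 5415 and 4865 in low MMP cells. Its low MMP values lay inside the high MMP values, and the difference was -0.02 (SE 0.17, interval -0.48 to 0.43, limma adjusted p = 0.994). *Itgb4*, its hemidesmosome partner, had 1755 and 2299.6 in high and 2412 and 2282 in low MMP cells. Only high MMP 1 stood apart, below the rest, and the difference was -0.22 (SE 0.15, interval -0.64 to 0.20, limma adjusted p = 0.752).

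*Itgb7*, the beta subunit of gut-homing receptors on lymphocytes, had 43.2 and 81.2 in high and 88.0 and 54.9 in low MMP cells. Its spread within each group was larger than the difference between them (-0.23, SE 0.42, interval -1.37 to 0.91, limma adjusted p = 0.939). Of its 2 alpha partners, *Itga4* was not in the table and *Itgae* had 0, 2, 3 and 1 reads.

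High MMP 1 stood low for most members. It was the lowest library in 8 of the 10 genes, against 37.3% of the 12902 genes whose mean reached 10, as that of all 10 members did. High MMP 2 was the highest in 6 of the 10, against 24.6%, and both held in 6 (*Itgav*, *Itga5*, *Itga6*, *Itgb1*, *Itgb3* and *Itgb5*), against 12.4%. *Itgb4* and *Itgb7* were highest in low MMP 1, and *Itgb8* was lowest in low MMP 1 and highest in low MMP 2. Between the high MMP replicates, *Itga5* differed by -0.74 on the log2 scale (replicate 1 minus 2), with a counting SE of 0.061, and *Itgav* by -0.70 with a counting SE of 0.028. These gaps were many times the counting error. *Itgb6* differed by 0.11, with a counting SE of 0.139, so its high MMP replicates agree within counting noise. Left without high MMP 1, the difference turned positive for *Itgav* (0.21), *Itga5* (0.06), *Itga6* (0.18), *Itgb3* (0.26), *Itgb5* (0.13) and *Itgb7* (0.22). Between same-numbered libraries, which were not taken as pairs, the differences were -0.56 and 0.28 for *Itgav* and 1.42 and 0.94 for *Itgb6*. The median difference of the 10 genes was -0.11, against -0.04 over all genes.

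**Figure D5:**
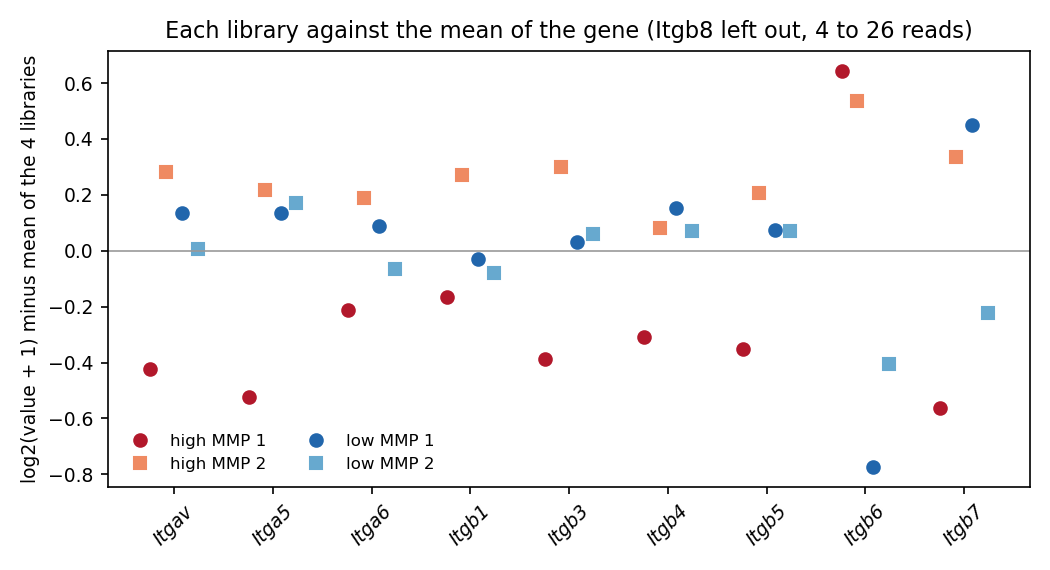
Log2(value + 1) of 9 integrin genes in each library minus the mean of that gene over the 4 libraries, with 1 point per library (*Itgb8*, at 4 to 26 reads, is left out). High MMP 1 is the lowest library for each gene except *Itgb6*, where both high MMP libraries lie above both low MMP libraries.

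Levels per kilobase of exon set *Itgb1* far above the rest, at an RPKM (reads per kilobase of exon, scaled to the depth of the library) of 223 ± 30.6 (SD over the 4 libraries), 7.84 times the next gene. *Itga6* (28.4 ± 3.42), *Itgb5* (22.0 ± 3.44), *Itgav* (21.7 ± 4.27) and *Itgb4* (15.6 ± 2.09) followed, and each neighbor in this run overlapped the next in range. *Itga5*, at 10.3 ± 2.21, lay below *Itgb4* without overlap, and *Itgb3*, at 3.05 ± 0.579, lay below *Itga5* likewise. *Itgb7* (1.21 ± 0.384) and *Itgb6* (0.873 ± 0.396) overlapped. *Itgb8* was lowest at 0.0516 ± 0.0373, and its range lay under that of *Itgb6*. By this scale *Itgb6* was 0.527% and 0.363% of all beta subunit transcripts in high and 0.172% and 0.228% in low MMP cells, and *Itgav* was 4.29% to 4.71% of all alpha subunit transcripts.

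The rest of the family was set beside these genes. Of 27 integrin genes listed, 21 were in the table, 11 of them outside the 10 above, and 8 of those 11 had a mean of at least 10. None of the 8 had both high MMP values above both low MMP values, and 3 had both low MMP values above both high MMP values, with 0 called by limma. Over all genes these shares were 13.5% and 24.5%. *Itgb2*, the leukocyte beta subunit, had 438 and 407 normalized reads in high and 531 and 663 in low MMP cells (-0.49, SE 0.14, limma adjusted p = 0.472), while its partner *Itgal* had 0, 2, 0 and 1 reads. *Itga10*, a collagen receptor subunit, rested on 13, 12, 34 and 36 reads (-1.54, SE 0.26, limma adjusted p = 0.472), and *Itga1*, another, differed by -0.55 (SE 0.24). *Itga3*, the laminin receptor subunit that made up 78.0% to 81.4% of alpha transcripts per kilobase, differed by -0.21 (SE 0.34) with overlap. *Itga2* (0.20, SE 0.37), *Itga7* (-0.38), *Itga8* (0.20) and *Itga2b* (-0.17) overlapped as well. The alpha subunits summed to an RPKM of 338 in high MMP 1 and 601 in high MMP 2, around 547 and 472 in low MMP cells, and high MMP 1 was again the lowest library in this sum, most of it *Itga3*.

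Genes that act with integrins were counted by list, and limma called 0 in each. These lists too were chosen with earlier results of these data known. The counts of genes without overlap are to be read against all genes, of which 13.5% had the higher and 24.5% the lower values in high MMP cells, and the medians against -0.04. Among the ligands of alpha-v integrins, 16 of 18 genes were in the table, of which 5 lay higher in high MMP cells without overlap, 6 lower, and 5 overlapped, with a median difference of -0.06. *Postn*, the matrix protein periostin, had 65.9 and 85.4 against 39.2 and 34.5 (1.01, SE 0.22). *Ccn1*, a secreted matrix protein that binds alpha-v integrins, had 11483 and 12525 against 6324 and 9365 (0.64), and DESeq2 called it (adjusted p = 0.0399). *Tgfb3*, which encodes a ligand carried by its latent complex to alpha-v receptors, differed by -0.39. Of 7 genes of the TGF-beta ligands and the latent TGF-beta binding protein family, 1 lay higher, 3 lower and 3 overlapped, with a median of -0.18. *Ltbp4* differed by -0.47 and *Ltbp3* by -0.35.

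A list of 30 genes held talins, kindlins and other adaptors, kinases and regulators of integrin adhesions. Of these, 13 lay higher in high MMP cells without overlap, 3 lower and 14 overlapped, with a median of 0.12 (all genes: 13.5% higher, 24.5% lower). *Fermt1*, the epithelial kindlin that activates integrins, had 3173 and 3505 in high and 2428 and 2056 in low MMP cells (0.58, SE 0.12), and DESeq2 called it (adjusted p = 0.0160). *Zyx*, a focal adhesion protein, differed by 0.41 and *Tns2*, a tensin, by -0.35. Of 7 hemidesmosome and laminin-332 genes, which serve alpha-6 beta-4, 2 lay higher and 5 overlapped (median 0.09). *Lama3*, a laminin-332 chain, had 1388 and 1895 against 1120 and 953 (0.65; DESeq2 adjusted p = 0.0241), *Col17a1* differed by 0.84 on 44, 33, 22 and 16 reads, and *Lamb3* by 0.44. Of 8 tetraspanins, 1 lay higher and 1 lower (median 0.04), with *Tspan1* at -0.34 (SE 0.31, overlapping), *Cd81* at -0.17 and *Cd82* at 0.14. Of 13 genes of integrin uptake and recycling, 4 lay higher and none lower (median 0.06), with *Rab11b* at 0.35, *Rab25* at 0.20 (SE 0.27, overlapping) and *Rab11a* at 0.20.

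The genes closest to *Itgb6* in pattern over the 4 libraries, by the distance between log2 values centred on each gene's mean, were *Depdc1b* (0.0665), *Kpna2* (0.112), *Nusap1* (0.191), *Ube2c* (0.197) and *Fam83d* (0.260), among 9998 genes whose mean reached 100. *Nusap1* and *Ube2c* belong to the G2/M list above.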

How the data were processed

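RNA of 2 high MMP and 2 low MMP samples was measured by sequencing. The authors aligned reads to GRCm38 with STAR, counted them per gene (HTSeq is named in the submitters' processing notes) and divided by the library total. Versions, annotation release and the use of strand in counting are not given in the sources used here. The deposited values are this normalized signal, summing to 20000000 per library. Steps of 0.758 to 0.885 units gave whole reads for 100% of values (tolerance 0.02 reads). The table held 0 columns of no sample. Exons of *Itgav* and *Itgb4* share 634 and 537 bases with genes of the opposite strand that are not in the table.

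The main test was limma 3.58.1 in R 4.3.3 on log2(value + 1), trend on mean expression, no block, Benjamini-Hochberg over 20197 genes, threshold 0.05. Such differences understate changes of low genes. On whole reads, edgeR 4.0.16 (quasi-likelihood, TMM) called 0 genes (1423 at an unadjusted p under 0.05) and DESeq2 1.42.0 called 118 of 11974 with an adjusted p. The limma count was 0, with 2011 at an unadjusted p under 0.05. Exon lengths and positions came from GENCODE M21, with 19993 identifiers matched. Alternatives were pseudocounts of 0.5 and 5, a mean of at least 10, median-of-ratios and quantile scaling, no variance trend, the replicate block and leaving out each library. The fits were also run on simulated counts with the same dispersion for every gene and library. The replicates here did not share such an even spread, so that run does not measure the accuracy of the fits on these data.

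Leukocyte, platelet and fibroblast markers are given as sums. Named are otherwise the 10 members, in each list the 3 genes that differed most among those whose mean reached 10, other integrin genes at that level, and the 5 genes closest to *Itgb6*. Genes named outside this rule, such as *Itgae*, were chosen after their values were seen. The members and lists were chosen with earlier results of these data known.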

Additional observations from a re-analysis of the deposited data

How the results depend on the processing

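Over 14 settings *Itgb6* stayed higher in high MMP cells, by 0.99 to 1.36 on the log2 scale, with adjusted p from 0.000475 to 0.900. It passed the threshold in DESeq2 (1.22, adjusted p = 0.00537) and in edgeR with the replicate block (1.22, adjusted p = 0.000475), and was the 1 member called in each. Over all genes DESeq2 called 118 and edgeR with the replicate block 106, against 0 in limma. The replicate block in limma gave *Itgb6* 1.18 (adjusted p = 0.798) and changed no call. No label says that a number marks a shared sort, so the numbers were not taken as pairs. Same-numbered samples did not deviate together (correlation of -0.421 across 12902 genes). With 2 samples per group this correlation cannot decide whether they were paired. Crossed numbers as the block, chosen after seeing the data, gave 733 calls in edgeR and 0 in limma, with 1 member called in edgeR. The cause was not tested.

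*Itga6* turned positive under median-of-ratios scaling (0.020), edgeR (0.027), edgeR with the replicate block (0.016) and DESeq2 (0.0300). *Itgb8* turned negative with a pseudocount of 5 (-0.083), in edgeR (-0.43), with the replicate block in edgeR (-0.18) and in DESeq2 (-0.43). Leaving out 1 library at a time, with a lone sample assumed to vary like the others, gave -0.49 to 0.21 for *Itgav*, -0.68 to 0.064 for *Itga5*, -0.22 to 0.18 for *Itga6*, -0.11 to 0.32 for *Itgb1*, -0.43 to 0.26 for *Itgb3*, -0.42 to -0.03 for *Itgb4*, -0.42 to 0.13 for *Itgb5*, 0.99 to 1.36 for *Itgb6*, -0.67 to 0.22 for *Itgb7* and -1.19 to 1.23 for *Itgb8*. The share of *Itgb6* differed by 0.261 percentage points per kilobase, against 0.454 in reads, and by 0.294 to 0.615 when 1 library was left out. The log2 ratio of *Itgb6* differed by 0.80 to 1.35 for *Itgb1*, 0.87 to 1.67 for *Itgb3*, 0.99 to 1.66 for *Itgb5* and 0.13 to 2.18 for *Itgb8* in the same way. *Itgb8* had 4 to 26 reads and a wide spread between low MMP libraries.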
